A study of Rattus norvegicus with 300 samples.

Results

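The core genes of the circadian clock were followed through a rat brain RNA-seq series: the activators Clock and Arntl (the older symbol of Bmal1), the repressors Per1, Per2, Per3, Cry1, Cry2, Nr1d1 and Nr1d2, and the output gene Dbp. The members were chosen by their gene symbols, and all 10 were found among the 17337 symbols of the count table. Male Long Evans rats, 60 days old, took their treatment for 3 weeks in the drinking water. The 6 groups were plain water (Control), maltodextrin at 10 g/L (Maltodextrin), probiotics (Probiotics), bupropion at 15 mg/kg/day (Bupropion), desipramine at 7.5 mg/kg/day (Desipramine) and a group labelled FT. The labels do not spell out FT. Fluoxetine, at 13 mg/kg/day, is the drug of the protocols that no other group took. Punches of 10 brain regions, labelled PLC, ILC, CGC, NACShell, BLA, dorDG, venDG, mPOA, Raphe and LConly, gave 5 libraries for each region and treatment, 300 in all. Probiotics was compared with Maltodextrin and the other treatments with Control. The punches of a region were pooled before extraction, and the labels do not say how many animals a pool holds. The p-values measure the spread between the 5 libraries of a group, and whether these came from separate pools is not known here. The labels give no hour of tissue collection, and a difference in that hour between treatments cannot be told apart from a treatment difference.

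In the mammalian clock, CLOCK and BMAL1 bind E-box sequences as a pair and switch on the Per and Cry genes. The PER and CRY proteins then return to the nucleus and block CLOCK and BMAL1, which closes a loop of about a day. In a second loop the nuclear receptors encoded by Nr1d1 and Nr1d2 (REV-ERB alpha and beta) repress Arntl at elements that ROR receptors use to activate it. Dbp is a direct E-box target whose protein acts on D-box elements, and its mRNA is among the most rhythmic outputs in many tissues. Per1 also responds acutely to neuronal activity and to glucocorticoids. Transcripts of the activating and the repressing arms peak at different hours, so their relative levels in 1 tissue depend on the time of day.

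Promoter windows in RefSeq (build GRCr8, 250 bases before to 50 bases after a transcript start) were found for 9 of the 10 genes, 11 windows in all. Cry1 was not matched. On both strands they were searched for the E-box CACGTG, the D-box TTATGTAA or TTACGTAA, the core AGGTCA of the ROR and REV-ERB element, and the cyclic AMP response element TGACGTCA. An E-box lay in 1 of the 11 windows, against 6.42% of all 33469 promoter windows. The D-box lay in 1 (1.01% of all windows), the AGGTCA core in 2 (16.2%) and the cyclic AMP response element in 0 (1.83%). The 4 windows with a match are shown because they carry the elements through which the loops act, with the matched letters in capitals. They are Arntl on chromosome 1 (chr1:176766078-176766377, plus strand), Per2 on chromosome 9 (chr9:99496944-99497243, minus strand), the second window of Nr1d1 on chromosome 10 (chr10:84229405-84229704, minus strand) and Nr1d2 on chromosome 15 (chr15:9954784-9955083, plus strand), each 300 bases long.
Arntl: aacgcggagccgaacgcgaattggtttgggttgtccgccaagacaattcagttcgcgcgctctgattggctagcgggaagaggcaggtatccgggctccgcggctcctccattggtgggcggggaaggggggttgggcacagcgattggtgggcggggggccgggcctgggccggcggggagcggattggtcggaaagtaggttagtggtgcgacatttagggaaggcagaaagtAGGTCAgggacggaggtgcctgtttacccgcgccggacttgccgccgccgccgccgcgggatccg
Per2: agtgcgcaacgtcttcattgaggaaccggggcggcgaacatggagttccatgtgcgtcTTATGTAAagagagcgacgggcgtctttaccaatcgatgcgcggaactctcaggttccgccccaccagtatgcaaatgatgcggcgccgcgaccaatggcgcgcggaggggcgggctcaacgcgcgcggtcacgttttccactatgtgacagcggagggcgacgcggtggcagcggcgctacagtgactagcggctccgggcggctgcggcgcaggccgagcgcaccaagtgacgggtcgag
Nr1d1: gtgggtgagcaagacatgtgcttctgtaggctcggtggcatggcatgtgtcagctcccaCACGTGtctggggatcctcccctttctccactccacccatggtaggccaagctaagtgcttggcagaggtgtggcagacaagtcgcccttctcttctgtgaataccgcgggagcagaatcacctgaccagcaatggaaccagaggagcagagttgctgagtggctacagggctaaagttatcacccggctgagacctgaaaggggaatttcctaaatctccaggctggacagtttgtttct
Nr1d2: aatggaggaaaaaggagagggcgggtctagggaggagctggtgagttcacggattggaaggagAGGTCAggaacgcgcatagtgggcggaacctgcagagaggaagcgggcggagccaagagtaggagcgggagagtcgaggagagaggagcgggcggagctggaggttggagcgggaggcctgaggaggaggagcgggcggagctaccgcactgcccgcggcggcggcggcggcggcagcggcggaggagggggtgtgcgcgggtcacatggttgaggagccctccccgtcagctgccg
The AGGTCA core of Arntl began at base -15 from the start, the D-box of Per2 at -192, the E-box of Nr1d1 at -191 and the AGGTCA core of Nr1d2 at -187. A match describes the letters of the window and does not show that a factor binds there.

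The libraries held 198260 to 18310687 counts (median 9232563), and 4 libraries held under 1000000. Levels are given as CPM, the count of a gene scaled to a library total of 1000000. In FT the markers of ILC and LConly were crossed. Dbh, which encodes the last enzyme of noradrenaline synthesis, was at 255 CPM in FT ILC and 0.651 CPM in FT LConly, against 0.305 and 140 CPM in Control. Tbr1, a cortical transcription factor, stood at 0.485 CPM in FT ILC and 18.0 CPM in FT LConly. Cell type markers also differed between treatments within a region. The summed choroid plexus markers stood at 8054 CPM in FT BLA against 38.6 in Control BLA, and the summed antigen presentation markers at 847 CPM in Control BLA and 811 in Control venDG against 45.3 and 17.7 in FT. FT replicate 1 stood apart from the other FT replicates over all genes (SD of its log2 deviation 0.357, against 0.0506 to 0.157 for the other 29 treatment replicates). The Control ILC and Probiotics dorDG libraries also stood apart in markers. Slc17a7, a glutamate transporter of excitatory neurons, was at 23.4 CPM in Control ILC against 274 to 370.2 in the other ILC groups but FT, and at 28.6 CPM in Probiotics dorDG against 326 to 490 in the other dorDG groups. Mbp, a myelin gene of oligodendrocytes, was at 312 CPM in Control ILC against 681 to 2722 there, and at 597 CPM in Probiotics dorDG against 5799 to 9393. All 5 libraries of each group shared this shift, with Slc17a7 at 20.8 to 27.5 CPM in Control ILC and 25.9 to 34.2 in Probiotics dorDG. A difference in dissection between groups cannot be told apart from a treatment difference. Where the call or value of a member's change over all regions moved, it is also given without ILC and LConly or for CGC, mPOA, NACShell, PLC and Raphe alone. The variance shares, the lists of other genes and the likeness of genes include all libraries.

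Nr1d1 lies tail to tail with the thyroid receptor gene Thra on the opposite strand and overlaps it. The labels and notes do not say whether the counting used strand, so reads of the 2 genes may be mixed and the values of Nr1d1 are uncertain to that extent. Over all regions, fitted as described below, Thra rose by 0.52 in FT, 0.52 in Bupropion, 0.44 in Desipramine and 0.27 in Probiotics, and was at -0.04 in Maltodextrin (adjusted p = 0.3533, edgeR). The changes of Nr1d1 in the same order were 0.60, 0.52, 0.01, 0.86 and -0.33.

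Region took the largest share of the variance in 8 of the 10 genes, all but Clock and Nr1d2. Differences between regions took 64.5% of the variance of Arntl in log2(CPM + 0.5) over the 300 libraries, and 28.3% of that of Clock. Treatment took 38.6% for Nr1d2, 33.4% for Clock, 26.8% for Dbp and 23.4% for Nr1d1, and between 6.12% and 13.7% for the other 6. Over 11940 genes with a mean above 1 CPM the median shares were 37.5% for region and 13.1% for treatment. The share within groups was lowest for Cry2, 3.53%, and highest for Cry1, 20.9%.

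Arntl had its highest mean over treatments in ILC (41.9 ± 7.67 CPM, SD over 5 treatments, FT left out), BLA (41.8 ± 4.57, SD over 6 treatments) and CGC (41.4 ± 7.77), and its lowest in Raphe (19.1 ± 3.86). In the order of region means of log2(CPM + 0.5), Arntl could be told apart at 5 of its 9 steps between neighbouring regions, the most of any member (paired permutation test over treatment replicates, two-sided, adjusted over 90 pairs of neighbours). The test treated replicates as independent, but the replicates of a treatment share its region differences. For Cry2 the interaction of treatment and region took 38.4% of the variance, and the spread within groups 3.53%. The order also came from the same data. The p-values of steps may thus be too small for a difference that holds across treatments. The largest of these steps was from NACShell to dorDG, 0.31 on the log2 scale (adjusted p = 0.0001125, from the smallest p that the permutations can give, higher in 27 of 30 replicates). Clock ran from 123 ± 13.4 CPM in BLA to 74.5 ± 20.5 in venDG, and 2 of its 9 steps were told apart. At the top of the Arntl order, neither BLA and ILC nor ILC and CGC were told apart.

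Among the repressors, Per2 stood at 26.8 ± 5.36 CPM in PLC, 25.8 ± 6.25 in ILC and 25.6 ± 6.57 in CGC, with no step between these neighbours told apart. The next region, BLA, was 0.50 lower than CGC on the log2 scale (adjusted p = 0.0001125, permutation test). Per2 was lowest in LConly (6.91 ± 2.41 CPM) and Raphe (7.81 ± 1.93), and the step from mPOA to Raphe was 0.89, in the same direction in 30 of 30 replicates. Per1 was lowest in the same regions (Raphe 3.002 ± 1.40, LConly 3.17 ± 1.50), and its drop from ILC to LConly was 0.96 in 25 of 25 replicates. Its mean was highest in BLA (14.03 ± 6.63 CPM), where a Desipramine library with 198260 counts stood at 95.8 CPM, and on the log2 scale CGC ranked first. Nr1d1 was highest in CGC (82.5 ± 17.6 CPM), above BLA in 30 of 30 replicates by 0.63 on the log2 scale, and lowest in Raphe (20.3 ± 5.71). Nr1d2, its close relative, ranged from 119 ± 20.7 CPM in ILC to 67.9 ± 20.5 in venDG.

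Per3 had its highest mean in BLA (32.3 ± 15.3 CPM), where Desipramine, with the library of 198260 counts, stood at 63.2 CPM. Its median over treatments was 26.8 CPM in BLA and 29.2 in dorDG. On the log2 scale BLA and dorDG were not told apart (0.14, adjusted p = 0.5372, permutation test). Per3 was lowest in venDG (11.2 ± 3.13). Cry1 was highest in NACShell (16.5 ± 2.54) and lowest in venDG (8.53 ± 1.45). Cry2 ranged from 132 ± 13.6 CPM in CGC to 76.0 ± 8.17 in Raphe. Dbp was highest in NACShell (93.3 ± 16.4), told apart from BLA by 0.23 on the log2 scale in 28 of 30 replicates, and lowest in Raphe (43.2 ± 11.7). Over all members 27 of the 90 neighbouring pairs were told apart by the permutation test, under the limit given above.

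**Figure D1:**
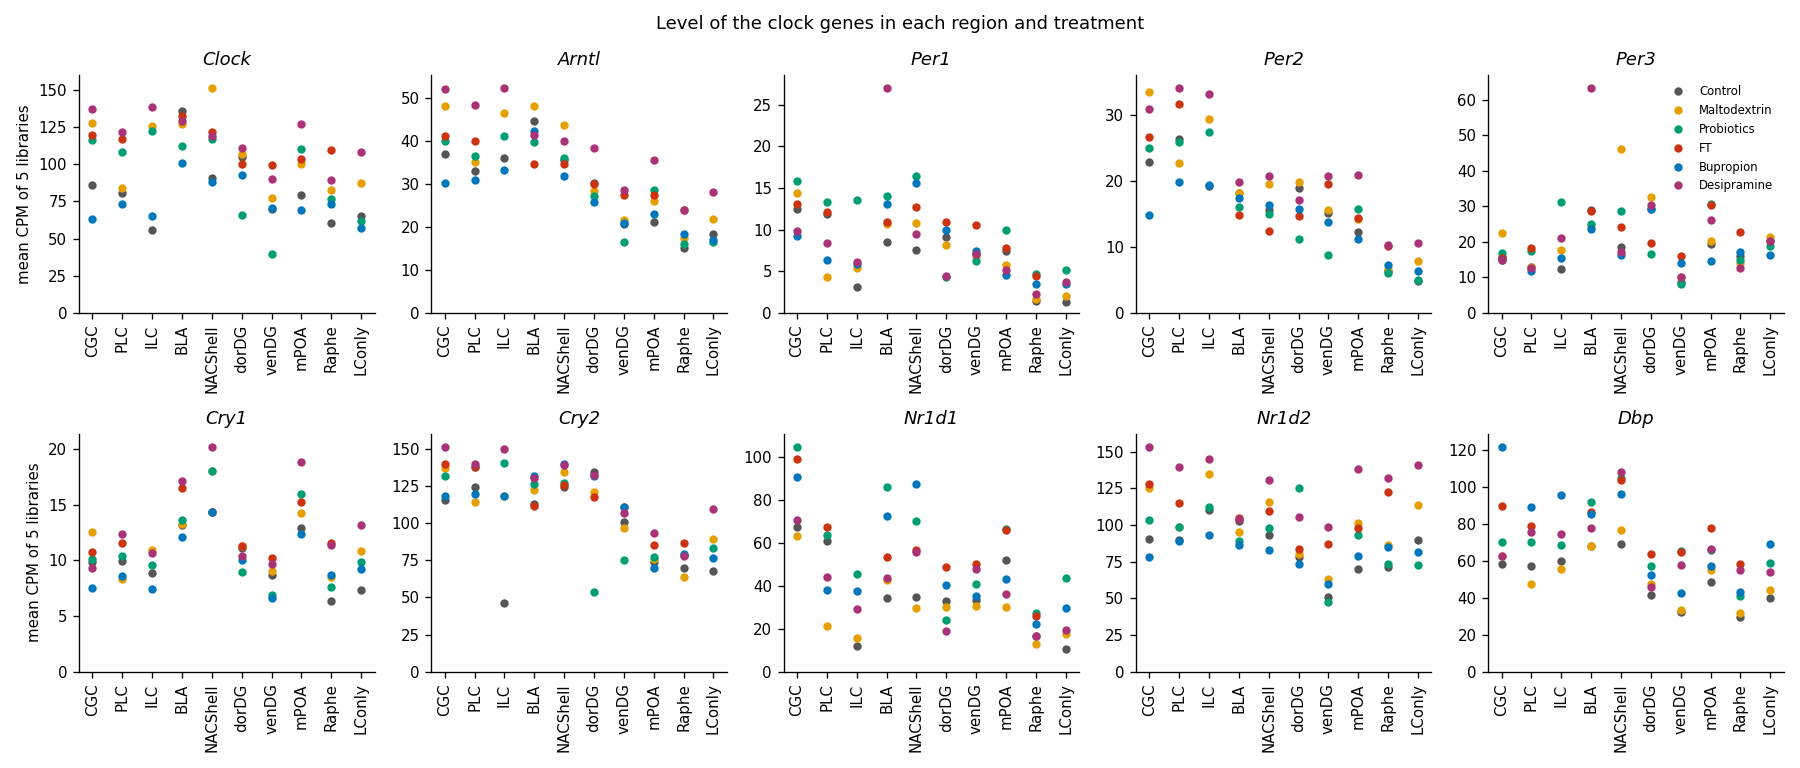
Mean CPM of the 5 libraries of each region (x axis) and treatment (colour) for each gene, on a linear axis from 0; the FT libraries labelled ILC and LConly are left out. Arntl, Per1 and Per2 sit lowest in Raphe and LConly, and the highest Per1 and Per3 points are Desipramine in BLA, where 1 shallow library is part of the mean.

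Treatment effects over all regions were tested on the counts of a treatment replicate summed over its 10 regions, with an offset for the depth of each region (edgeR's quasi-likelihood test over 15427 genes, Benjamini-Hochberg adjustment, called at an adjusted p under 0.05). Large parts of the transcriptome passed in every comparison, so the share of all genes called is printed beside each count of members. No share of all genes without overlap between groups is given here, so a lack of overlap is only a description of the replicates. In bulk tissue, fewer cells of a type and less RNA per cell cannot be told apart. Per-replicate levels below are means of CPM over the 10 regions, which weigh each region alike, whereas the fitted changes weigh regions by their counts and use TMM scaling, so the ratio of the levels can differ from the fitted change.

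**Figure D2:**
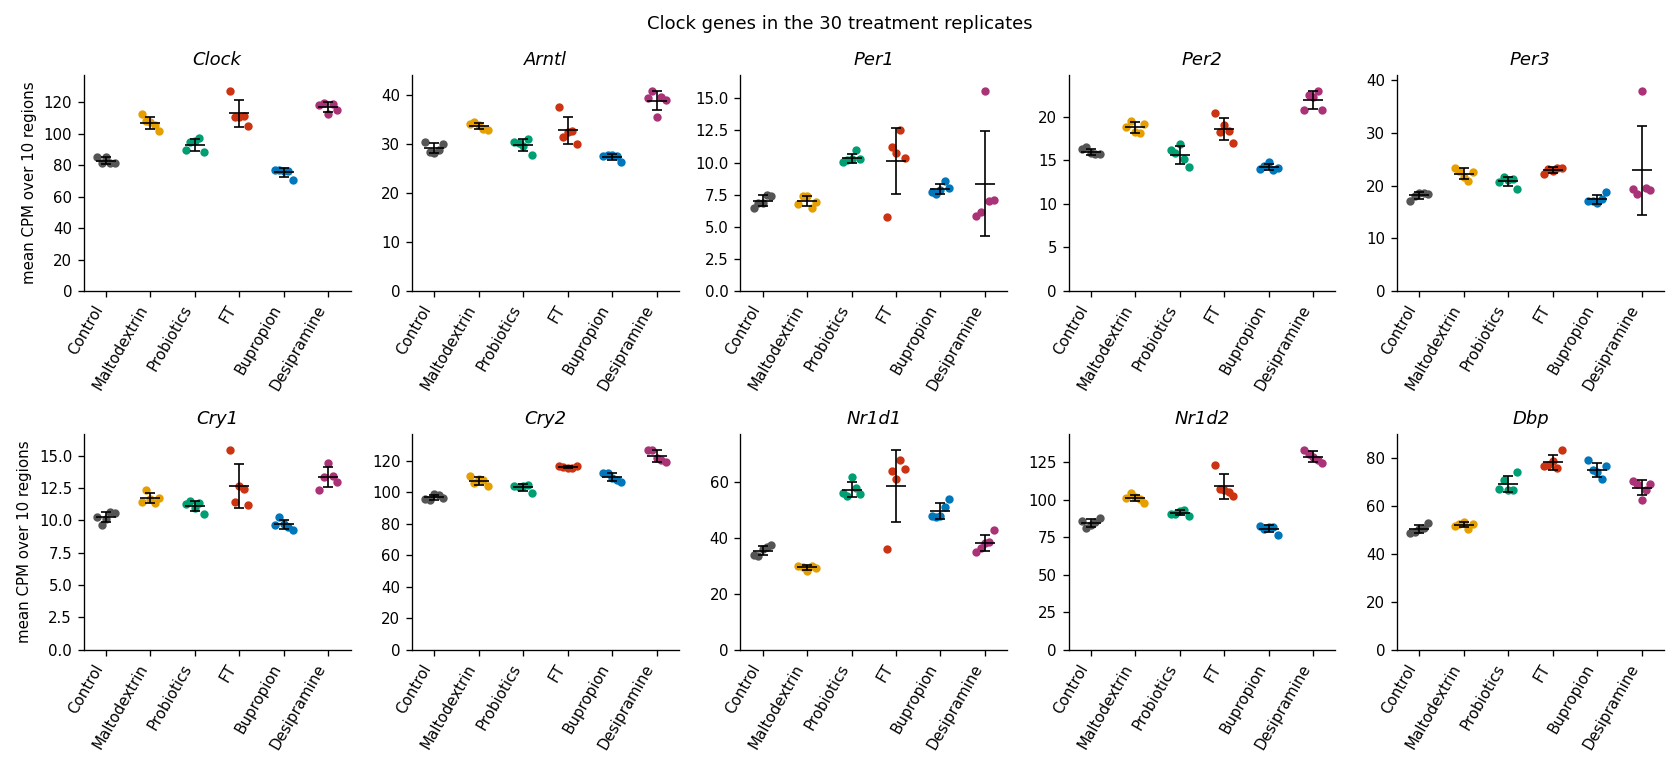
Mean CPM over the 10 regions in each of the 5 replicates of the 6 treatments (points, coloured by treatment) with their mean and SD (black), each gene on its own linear axis from 0. FT replicate 1 lies below the other FT replicates in Per1 (5.75 CPM) and Nr1d1 (36.1 CPM), and Desipramine replicate 3 lies above its group in Per1 (15.6 CPM) and Per3 (38.0 CPM). The mean of Desipramine replicate 3 includes the BLA library with 198260 counts.

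In FT, 9 of the 10 clock genes rose against Control and none fell, where 31.6% of all genes were called higher and 30.4% lower. The median change of the 10 was 0.24 on the log2 scale, against 0.01 over all genes. The output gene Dbp stood at 76.8, 77.3, 78.8, 75.8 and 83.7 CPM in the 5 FT replicates and at 48.6, 49.3, 50.7, 50.8 and 53.0 CPM in Control, with no overlap, and rose by 0.51 ± 0.04 (SE; adjusted p = 3.341e-12). Of the repressors, Nr1d1 stood at 36.1, 63.7, 61.1, 67.8 and 64.5 CPM against 33.9, 33.4, 35.9, 36.7 and 37.5. Replicate 1 lay within the Control range, and the other 4 lay above it. Nr1d1 rose by 0.60 ± 0.10. Per1 stood at 5.75 CPM in replicate 1, below the Control range of 6.485 to 7.497 CPM, and at 10.3 to 12.5 CPM in the others. It rose by 0.43 ± 0.11. Of the activators, Clock rose by 0.37 ± 0.03, with 127, 111, 111, 111 and 105 CPM against 81.3 to 85.3 in Control, while Arntl was at 0.06 ± 0.03 (adjusted p = 0.1115). Per3 and Nr1d2 rose by 0.24 each, Cry2 by 0.19, Cry1 by 0.18 and Per2 by 0.13. Cell type markers moved over all regions in the same comparison. Choroid plexus markers were higher in 6 of 6 (median 0.35) and preoptic and hypothalamic peptide markers in 3 of 4 (1.44), while striatal projection neuron markers were lower in 4 of 4 (-0.45), oligodendrocyte markers in 4 of 6 (-0.39) and antigen presentation markers in 5 of 5 (-3.01). Their part in the clock gene changes was not tested.

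FT changes were recomputed without the regions with crossed markers. Without ILC and LConly, Per2 was at 0.03 (adjusted p = 0.5161) and Cry2 at 0.03 (0.2074), so both calls were lost, and the call of Per2 was also lost with regions weighed alike (0.08, adjusted p = 0.1124, limma). Nr1d1 was at 0.38 and Per1 at 0.24 without ILC and LConly, both still called. With CGC, mPOA, NACShell, PLC and Raphe alone, Dbp was at 0.47, Clock at 0.36, Nr1d2 at 0.30, Per3 at 0.25 and Nr1d1 at 0.25, all called (58.4% of all genes were called there in either direction), and Per1, Per2, Cry1 and Cry2 were not called (0.13, 0.03, 0.09 and 0.02).

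In Bupropion, 3 of the 10 rose (30.2% of all genes were called higher), 1 fell (27.4% lower) and 6 were not called. Dbp stood at 79.1, 75.1, 74.1, 71.4 and 76.7 CPM, above every Control replicate, and rose by 0.68 ± 0.04 (adjusted p = 2.62e-14), more than 98.2% of all genes. Nr1d1 stood at 47.6, 47.5, 47.9, 51.1 and 53.7 CPM, again with no overlap, and rose by 0.52 ± 0.10. Cry2, a repressor partner of the PER proteins, rose by 0.28 ± 0.02 (106 to 112 CPM against 95.1 to 98.8). Per2 fell by 0.10 (adjusted p = 0.03012), with 13.9 to 14.8 CPM against 15.7 to 16.5. That call was lost without filter (-0.09, adjusted p = 0.06828), with regions weighed alike (-0.09, adjusted p = 0.06843, limma) and without Bupropion replicate 1 or 4 or Control replicate 1 or 2 (adjusted p 0.07185 to 0.0863), and the value was -0.27 in the 5 regions alone. Clock was at -0.03 and Arntl at -0.01, not called. In CPM, which weighs regions alike, Clock stood at 70.8 to 77.02 against 81.3 to 85.3. With regions weighed alike Per1 was called higher (0.31, adjusted p = 0.04932, limma; 0.20 and not called in the sums). Clock was called lower with regions weighed alike (-0.11, adjusted p = 0.002387, limma), with only the 2 groups fitted (-0.08, adjusted p = 0.01394, edgeR), without ILC and LConly (-0.08, adjusted p = 0.03655) and in the 5 regions alone (-0.09, adjusted p = 0.04014). In the 5 regions alone (50.1% of all genes called) Nr1d1 was at 0.23 and Cry2 at 0.07, both still called, and Dbp at 0.69. Of the markers, choroid plexus was higher in 5 of 6 (median 0.60) and preoptic and hypothalamic peptides in 4 of 4 (0.94), and antigen presentation was lower in 5 of 5 (-2.82). Their part was not tested.

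In Desipramine, 7 of the 10 rose (34% of all genes were called higher), none fell (36% lower) and 3 were not called, with a median of 0.31 against -0.02 over all genes. Nr1d2 stood at 133, 131, 129, 127 and 124 CPM against 81.2 to 87.7 in Control and rose by 0.51 ± 0.03 (adjusted p = 5.081e-15). Clock stood at 118, 119, 113, 119 and 116 CPM and rose by 0.46 ± 0.03, and Arntl stood at 39.5, 40.8, 35.6, 39.5 and 38.9 CPM against 28.2 to 30.5 and rose by 0.34 ± 0.03. Per2 rose by 0.37 (20.8 to 23.0 CPM against 15.7 to 16.5), Dbp by 0.34, Cry2 by 0.29 and Cry1 by 0.28. In none of these did a Desipramine replicate overlap a Control replicate. Nr1d1 was at 0.01 ± 0.10 (adjusted p = 0.9256), Per3 at 0.00 ± 0.04 and Per1 at -0.16 ± 0.11. In the same 5 regions alone (66.7% of all genes called), Per1 fell by 0.41, Nr1d1 by 0.25 and Per3 by 0.15, and Cry2 was no longer called (0.06, adjusted p = 0.05741). Without ILC and LConly, Per1 was called lower as well (-0.29, adjusted p = 0.01078, edgeR). Over all regions the markers of oligodendrocytes were lower in 6 of 6 (median -0.49), antigen presentation in 5 of 5 (-3.16), noradrenaline neurons in 3 of 3 (-1.04) and preoptic and hypothalamic peptide neurons in 3 of 4 (-0.69). Their part in the clock gene changes was not tested.

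**Figure D3:**
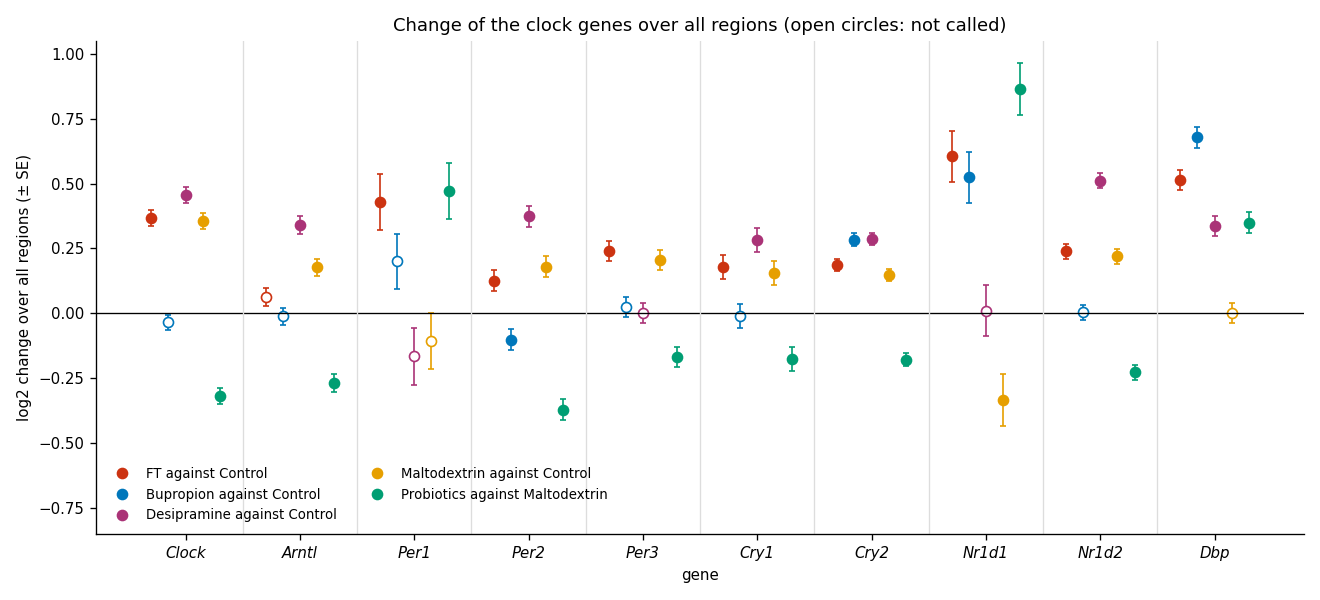
Log2 change over all regions with its standard error (y axis) for each gene (x axis) and comparison (colour); filled circles were called and open circles were not. Probiotics lies below 0 in 7 genes and above 0 in Per1, Nr1d1 and Dbp, and Dbp is called in 4 of the 5 comparisons.

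Maltodextrin, which the labels call a control, itself differed from plain water. Of the 10 genes 7 rose (25.3% of all genes were called higher), 1 fell (23.5% lower) and 2 were not called. Clock stood at 112, 108, 107, 106 and 102 CPM and rose by 0.36 ± 0.03 (adjusted p = 2.508e-10), more than 94.9% of all genes. Nr1d2 rose by 0.22, Per3 by 0.21, Per2 and Arntl by 0.18 each, and Cry1 and Cry2 by 0.15 each. Nr1d1 fell by 0.33 ± 0.10 (30.1, 29.6, 28.0, 30.1 and 29.3 CPM, below every Control replicate; adjusted p = 0.00632), while Dbp was at 0.00 ± 0.04. With regions weighed alike the call for Nr1d1 was lost (-0.26, adjusted p = 0.05229, limma), and in the 5 regions alone it was at -0.71. The overlapping gene Thra was at -0.40 in the same 5 regions. Cry2 was at 0.03 without ILC and LConly (adjusted p = 0.3708) and at -0.06 in the 5 regions alone (0.07991), not called in either. In the 5 regions alone (53.3% of all genes called) the calls of Per2 (0.06) and Cry1 (0.10) were lost too, and Per1 fell by 0.36. Cry1 also lost its call with regions weighed alike (0.11, adjusted p = 0.09495, limma). Choroid plexus markers were higher in 5 of 6 (median 0.54), serotonin neuron markers lower in 3 of 3 (-0.45) and antigen presentation markers lower in 5 of 5 (-2.48), and their part was not tested.

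Probiotics against Maltodextrin split the members into opposite directions, 3 higher (26.5% of all genes were called higher) and 7 lower (28.7% lower). The 7 lower members are those that rose in Maltodextrin against Control, and Nr1d1, higher here, had fallen there. Both comparisons share the Maltodextrin replicates with opposite sign, so these changes are not independent of those of Maltodextrin. Nr1d1 stood at 56.1, 54.8, 61.8, 57.7 and 55.6 CPM against 28.0 to 30.1 in Maltodextrin and rose by 0.86 ± 0.10 (adjusted p = 1.551e-08). Per1 rose by 0.47 ± 0.11 (10.1, 10.2, 10.3, 10.96 and 10.3 CPM against 6.49 to 7.37) and Dbp by 0.35 ± 0.04 (67.2, 71.1, 67.0, 66.9 and 74.5 CPM against 50.7 to 53.5). The groups did not overlap in these 3 genes. Per2 fell by 0.37, Clock by 0.32, Arntl by 0.27, Nr1d2 by 0.23, Cry2 by 0.18, and Cry1 and Per3 by 0.17 each. Clock stood at 89.5, 94.8, 95.2, 97.6 and 88.3 CPM, between Control and Maltodextrin. Per3 lost its call with regions weighed alike (-0.10, adjusted p = 0.1316, limma). In the 5 regions alone (51.3% of all genes called) the calls of Per3 (-0.10, adjusted p = 0.05488), Cry1 (-0.07) and Cry2 (0.01) were lost and the other 7 held, with Nr1d1 at 1.01, Per1 at 0.70, Per2 at -0.18 and Clock at -0.10. Preoptic and hypothalamic peptide markers were higher in 4 of 4 (median 1.063), and endothelium and mural cell markers were lower in 4 of 4 (-0.18) and dentate granule markers in 2 of 2 tested (-0.86). Their part was not tested.

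The drugs were also compared with each other in 3 pairs, since their comparisons with Control share the Control libraries. FT was above Bupropion in 5 members, below it in 2 and not called in 3 (28.9% of all genes higher, 28.8% lower). The largest difference was in Clock, 0.40 ± 0.03, while Dbp was lower in FT (-0.16, lost without ILC and LConly at -0.09, adjusted p = 0.06853, and with regions weighed alike at -0.04) and Nr1d1 was at 0.08 ± 0.10 (adjusted p = 0.495). Without FT replicate 1 the difference in Nr1d1 was 0.22 and that in Per1 0.37 instead of 0.23, both then called (adjusted p = 7.278e-05 and 6.679e-07). FT was above Desipramine in 4 members, below it in 5 and not called in 1 (32% higher, 30.8% lower), with Per1 at 0.60 ± 0.11 and Nr1d1 at 0.59 ± 0.10 above and Arntl at -0.28 and Nr1d2 at -0.27 below. The lower level of Clock (-0.09) lost its call without ILC and LConly (-0.05, adjusted p = 0.2073), in the 5 regions alone, with regions weighed alike and with only the 2 groups fitted, and that of Cry2 (-0.10) in the 5 regions alone (-0.05, adjusted p = 0.1744) and with only the 2 groups fitted. Cry1 (-0.10) was called lower in the 5 regions alone (-0.21, adjusted p = 0.002871). In the same regions FT against Bupropion lost the calls of Cry1 (0.12) and Cry2 (-0.05) and gained those of Arntl (0.13) and Per1 (0.25). Bupropion was above Desipramine in 3 members, Nr1d1 (0.51), Per1 (0.36) and Dbp (0.34), below it in 5, led by Nr1d2 (-0.51) and Clock (-0.49), and not called in 2 (36.7% higher, 33.6% lower).

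Ratios within a library do not depend on its depth or scaling. The log2 ratio of Dbp to Arntl, an output against an activator, had a mean over treatment replicates of 0.81 ± 0.07 (SD, n = 5) in Control, 0.67 ± 0.03 in Maltodextrin and 0.80 ± 0.03 in Desipramine. It was 1.42 ± 0.09 in Bupropion, 1.27 ± 0.15 in FT and 1.26 ± 0.13 in Probiotics. The lowest value of these 3 groups (1.07) lay above the highest of the other 3 (0.87). The log2 ratio of Nr1d1 to Nr1d2 was -0.85 ± 0.10 in Bupropion and -0.77 ± 0.05 in Probiotics, against -1.47 ± 0.05 in Control and -1.90 in both Desipramine (± 0.16) and Maltodextrin (± 0.07). In FT it was -0.99 ± 0.47, with replicate 1 at -1.82 and the median at -0.81. Without ILC and LConly the lowest Dbp to Arntl value of Bupropion, FT and Probiotics was 1.09 and the highest of the other 3 groups 0.90, but in the 5 regions alone these were 1.042 and 1.053, so the groups overlapped. The Nr1d1 to Nr1d2 ratio of Control was -1.049 without ILC and LConly. These ratios are given as descriptions, without a test. Dbp and Nr1d1 belong to the genes with the shortest genomic spans, Arntl to those with the longest and Nr1d2 to the third of 4 groups by span. Changes over all genes followed span, as given below, and its part in the ratios was not tested.

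The changes were then tested in each region (edgeR's quasi-likelihood test on its 30 libraries, adjusted over the genes of a region). Each comparison has 100 pairs of a member and a region. FT had 51 pairs higher and 8 lower, against 27.1% and 26.3% of all pairs of a gene and a region. Desipramine had 51 higher and 11 lower (26.4% and 27.9% of all pairs), Bupropion 29 and 20 (22.9% and 23.4%), Maltodextrin 29 and 10 (18.4% and 19.5%) and Probiotics 28 and 36 (21.7% and 21.1%). In the 5 regions alone, out of 50 pairs, FT had 27 higher and 2 lower (25.2% and 23.3% of all pairs there), Desipramine 27 and 8 (27.4% and 29.2%) and Bupropion 12 in each direction (22.8% and 23.1%). Maltodextrin had 14 and 9 (20.4% and 22.1%) and Probiotics 16 and 14 (20.2% and 18.5%).

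**Figure D4:**
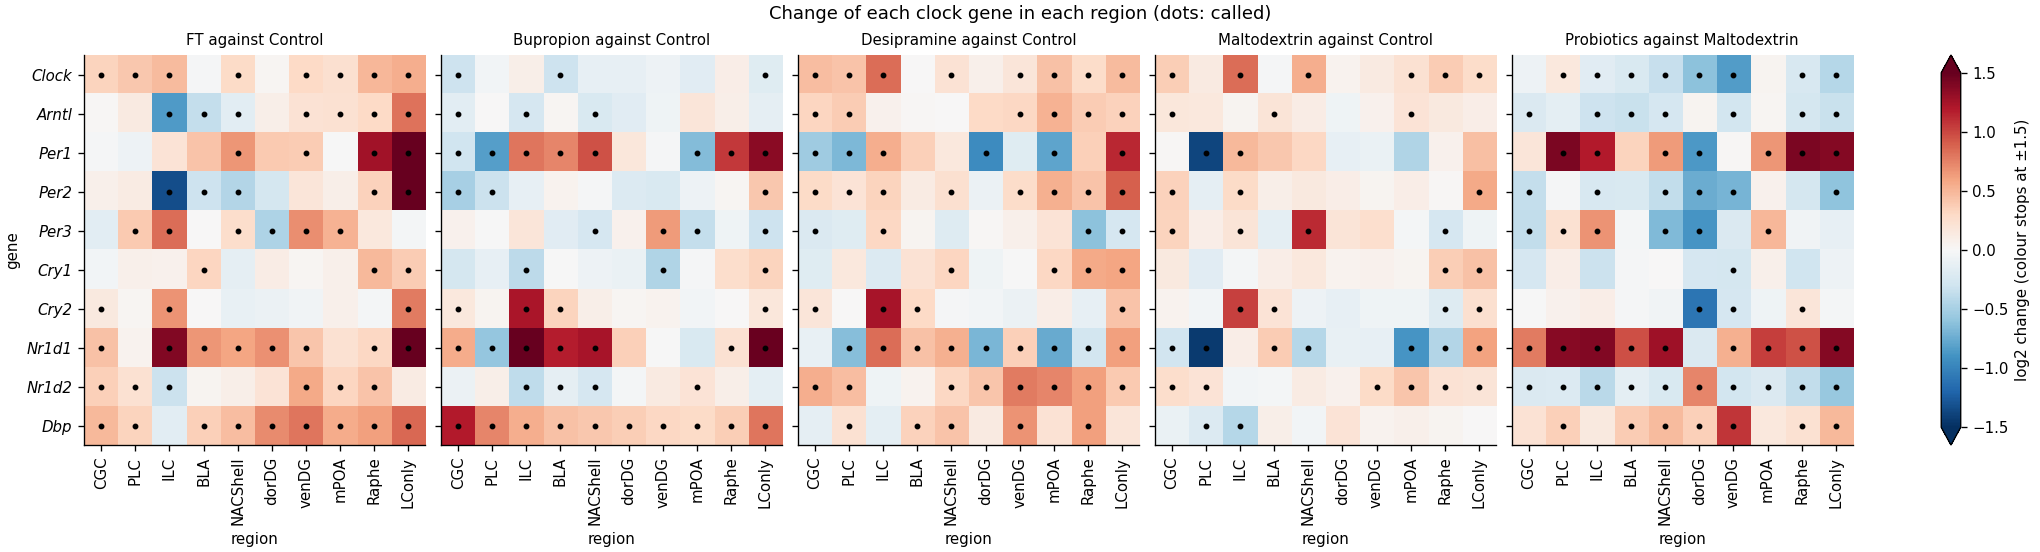
Log2 change of each gene (rows) in each region (columns) for the 5 comparisons, red for higher and blue for lower, with the colour held at ±1.5 and a dot where the change was called. The Dbp row is higher in 10 of 10 regions under Bupropion, the Nr1d1 row in 9 of 10 under Probiotics, and the FT columns ILC and LConly come from libraries with crossed markers.

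Dbp was higher in 10 of 10 regions under Bupropion (0.29 in mPOA to 1.19 in CGC) and under FT in 8 of the 8 regions without crossed markers (0.34 in PLC to 0.80 in venDG). In the FT libraries with crossed markers it was at 0.86 in LConly and at -0.16 in ILC (adjusted p = 0.1086). Under Probiotics it was higher in 7 and lower in none, under Desipramine in 5 and none, and under Maltodextrin it was higher in none and lower in 2. Nr1d1 was higher in 9 of 10 regions under Probiotics (0.54 to 1.39) and at -0.22 in dorDG, not called (adjusted p = 0.1818). Under Desipramine it went both ways, higher in 5 regions and lower in 4, and under Maltodextrin it was lower in 5, namely CGC, mPOA, NACShell, PLC and Raphe, and higher in 2. The overlapping gene Thra was called higher in the same 9 regions under Probiotics (0.17 in CGC to 0.76 in ILC) and was at -0.84 in dorDG. Under Maltodextrin Thra was at -0.27 in CGC, -0.44 in NACShell and -0.87 in PLC. It was not called in mPOA (-0.05) and Raphe (0.04). Under Desipramine Thra rose by 0.37 in mPOA, where Nr1d1 was at -0.76. Nr1d2 was lower in 9 regions under Probiotics and higher in 1, dorDG (0.73), and higher in 8 under Desipramine. Clock was higher in 8 regions under FT, among them ILC (0.48) and LConly (0.55) with crossed markers, and not called in BLA (-0.02) and dorDG (0.03). It was higher in 8 regions under Desipramine, and lower in 7 and higher in 1 under Probiotics.

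The change of a member differed between regions in nearly every case. A test of the 9 terms of treatment by region, over the 100 libraries of a comparison, called all 10 members for FT (92.6% of all genes), Bupropion (90.2%), Desipramine (87.2%) and Maltodextrin (89.8%), and 9 for Probiotics (82.3%), where Cry1 was not called (F = 1.30, adjusted p = 0.2733). In the 5 regions alone 9, 9, 8, 7 and 6 members were called, where 66.7%, 70.2%, 62.8%, 62.6% and 54.3% of all genes were called. Most genes passed this test, and the counts of members over 10 regions lie near that background.

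Single regions held changes well beyond the all-region values. The 2 changes named for each member are the largest of its called ones, with the FT libraries labelled ILC and LConly left out. The 5 libraries of the groups did not overlap in any of them. Little else could be found among the largest called changes, so this is no further support for them. The fitted changes use TMM scaling. Dbp stood at 129, 110.1, 142, 120 and 107 CPM in Bupropion CGC against 55.3, 56.9, 62.4, 63.1 and 54.7 CPM in Control, and rose by 1.19 ± 0.09 (adjusted p = 2.332e-13). Summed oligodendrocyte markers stood at 14450 CPM there against 9095 in Control, and their part in the result was not tested. Dbp also rose by 1.078 ± 0.10 in venDG under Probiotics (48.7 to 71.5 CPM against 29.9 to 37.4), where choroid plexus markers summed to 5828 CPM against 13070 and their part was not tested.

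Nr1d1 rose by 1.53 ± 0.10 in ILC under Bupropion. Its libraries stood at 34.8, 39.7, 35.7, 37.6 and 39.9 CPM against 13.4, 9.52, 11.7, 12.01 and 12.4 in Control. In LConly under Bupropion it rose by 1.49 ± 0.16 (25.7 to 34.5 CPM against 9.22 to 11.8). Cry2 also rose most in ILC, by 1.23 ± 0.06 under Desipramine (136 to 171 CPM against 43.6 to 50.7 in Control) and by 1.22 ± 0.06 under Bupropion (112 to 122 CPM), and Clock rose there by 0.84 ± 0.05 under Desipramine (129 to 149 CPM against 51.2 to 62.8). All 4 of these ILC changes share the Control ILC libraries, in which excitatory neuron markers summed to 310.1 CPM, against 636 in Bupropion and 632 in Desipramine. Of these Slc17a7 alone was at 23.4 CPM against 370.2 and 325. Oligodendrocyte markers summed to 2385 CPM in Control against 3884 and 3802, with Mbp at 312 CPM against 2722 and 1730. Thra, which overlaps Nr1d1, rose under Bupropion by 1.72 in ILC (205 CPM against 56.3) and by 1.33 in LConly (100.6 against 40.3). In LConly the oligodendrocyte markers summed to 86430 CPM in Bupropion against 49520 in Control, with Mbp at 64880 against 23520. Noradrenaline neuron markers in LConly summed to 276 CPM in Control, 422 in Bupropion and 124 in Desipramine. Their part in these results was not tested.

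Per1 rose by 1.41 ± 0.20 in Raphe under Probiotics (3.60, 5.33, 5.41, 5.33 and 3.94 CPM against 1.89, 1.39, 1.94, 1.49 and 1.38 in Maltodextrin) and by 1.41 ± 0.13 in PLC (11.9 to 14.3 CPM against 3.45 to 4.78). In PLC it had been lower in Maltodextrin than in Control, by 1.37 on the log2 scale, with a mean of 13.3 CPM in Probiotics and 11.9 in Control. Excitatory neuron markers in Raphe summed to 50.7 CPM in Probiotics and 33.6 in Maltodextrin, and choroid plexus markers in PLC to 68.6 and 25.5, and their part was not tested. Per3 rose by 1.12 ± 0.09 in NACShell under Maltodextrin (42.9, 52.4, 46.1, 42.8 and 46.0 CPM against 17.8, 16.2, 17.7, 19.2 and 22.1). Excitatory neuron markers summed there to 178.9 CPM in Maltodextrin and 296 in Control, and their part was not tested. Per2, Per3 and Clock each had a named decrease under Probiotics in dorDG or venDG. In dorDG Per2 fell by 0.75 ± 0.14 (7.84 to 16.3 CPM against 18.4 to 22.9) and Per3 by 0.88 ± 0.13 (9.31 to 22.4 against 28.7 to 34.9), and in venDG Clock fell by 0.84 ± 0.07 (35.6 to 44.1 against 60.7 to 91.0), with the choroid plexus markers given above. In dorDG dentate granule markers summed to 52.0 CPM in Probiotics and 183 in Maltodextrin, excitatory neuron markers to 406 and 781, with Slc17a7 at 28.6 and 444, and oligodendrocyte markers to 4111 and 10060, with Mbp at 597 and 5799. Their part was not tested.

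Both named changes of Arntl, Cry1 and Nr1d2 were in Desipramine. Arntl rose by 0.52 ± 0.08 in mPOA (32.6, 37.4, 37.2, 36.8 and 33.6 CPM against 24.3, 17.4, 23.5, 17.6 and 22.6) and by 0.39 ± 0.07 in PLC (44.6 to 52.3 against 30.3 to 36.5). Nr1d2 rose by 0.78 ± 0.06 in venDG (92.7 to 106 CPM against 47.8 to 58.4) and by 0.74 ± 0.07 in mPOA (123 to 150 against 59.5 to 83.2). Cry1 rose by 0.59 ± 0.14 in LConly (12.4 to 15.0 CPM against 5.41 to 11.2) and by 0.57 ± 0.12 in Raphe (9.81 to 12.9 against 5.17 to 7.43), and Per2 by 0.89 ± 0.11 in LConly (10.1 to 11.3 against 3.83 to 6.21). Oligodendrocyte markers were lower in Desipramine in mPOA (28000 CPM against 54750), PLC (4158 against 6707) and Raphe (61420 against 119900), as were antigen presentation markers in venDG (28.6 against 811) and dentate granule markers in venDG (48.2 against 85.5). Their part in these changes was not tested.

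**Figure D5:**
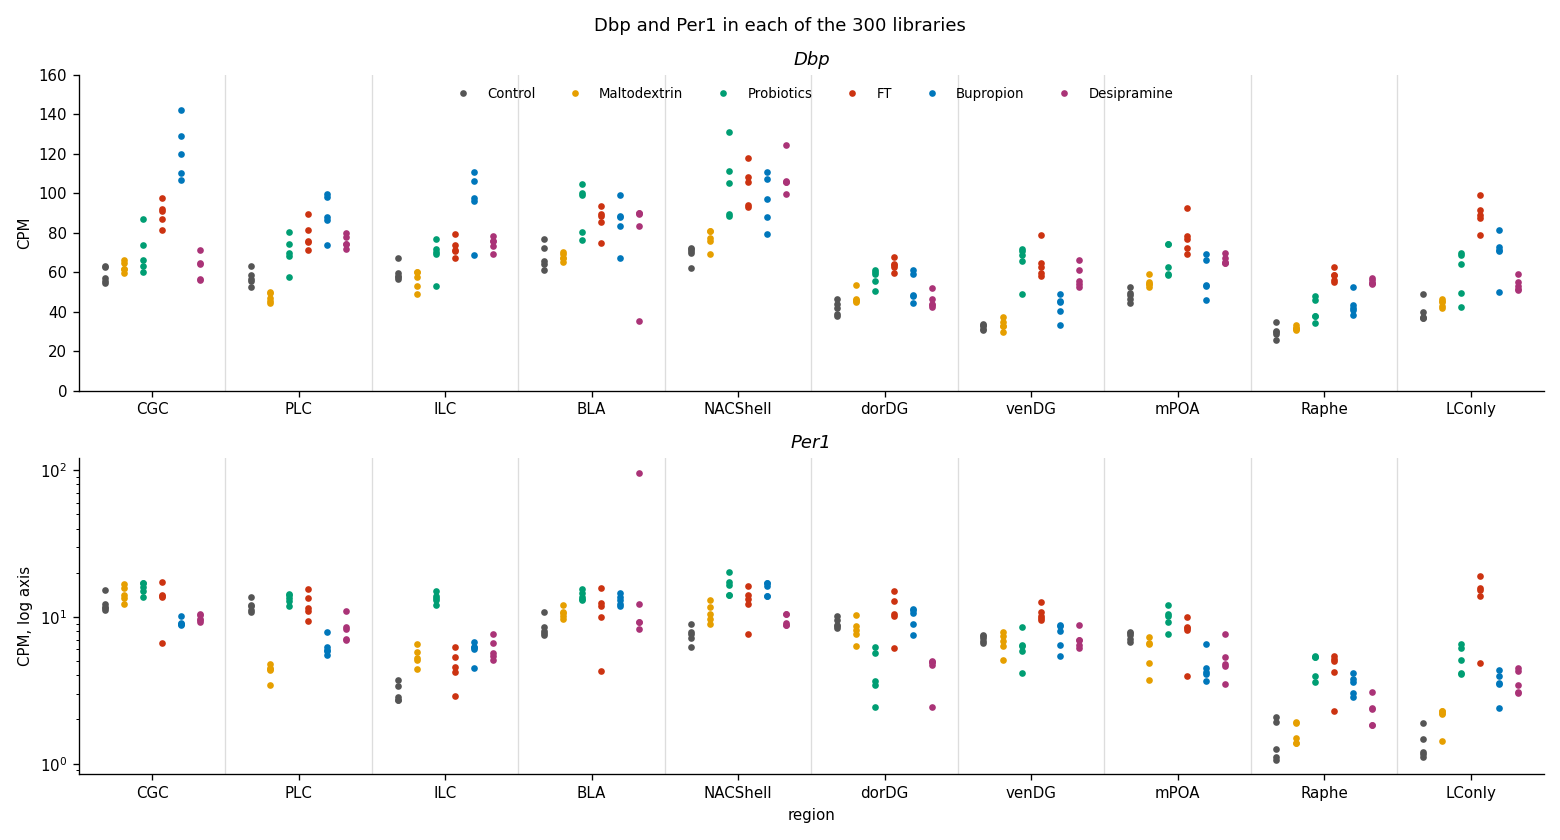
CPM of Dbp (linear axis from 0) and Per1 (log axis) in each of the 300 libraries, by region and coloured by treatment. Bupropion lies above Control in CGC for Dbp without overlap, 1 FT library lies below the other 4 for Per1 in each region, and the Per1 point at 95.8 CPM is the Desipramine BLA library with 198260 counts.

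Replicates of a treatment carried a number through all regions, which allowed a test of whether the regions of a replicate deviated together (24 terms of replicate within treatment over the 300 libraries). Nr1d1, Per1, Clock and Arntl were called, 4 of 10 members, where 55.2% of all genes were called. Nr1d1 had F = 12.6 (adjusted p = 1.702e-28), Per1 F = 4.58 (1.652e-09), Clock F = 2.11 (0.00583) and Arntl F = 1.69 (0.04784), all from edgeR's quasi-likelihood test. FT replicate 1 had the lowest Per1 and the lowest Nr1d1 of the 5 FT libraries in 10 of 10 regions, and the highest Clock and Nr1d2 in 7 of 10. Over the 10 regions its Arntl was the highest of FT (37.5 CPM against 29.96 to 32.6), and its Dbp, at 76.8 CPM, lay within the range of the others. Without FT replicate 1, 1 member was called, Nr1d1 (F = 2.55, adjusted p = 0.002207, edgeR), where 25.9% of all genes were called.

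Correlations between members were computed over the 30 treatment replicates after centring within treatments, for 45 pairs (Pearson r, two-sided test with 100000 permutations within treatments, adjusted over the 45 pairs). With CPM of raw totals 10 pairs were called, 9 of them positive, and in the 5 regions alone 9, of which 8 were positive. Clock and Nr1d2 had r = 0.81 (rho = 0.64, adjusted permutation p = 0.00195 and 0.0186), Arntl and Nr1d2 r = 0.79 (rho = 0.75, adjusted p = 0.00195 and 0.00315) and Clock and Arntl r = 0.78 (rho = 0.62, adjusted p = 0.00195 and 0.01924). Without the 2 replicates farthest from the median of the first gene, these were 0.64, 0.65 and 0.62, and 7 pairs were called. With TMM-normalised CPM none of the 45 pairs was called, though 15 had an unadjusted p under 0.05, against 14 with raw totals (0.59, 0.60 and 0.59 for the same pairs, adjusted permutation p = 0.07798, 0.05835 and 0.05062). Per1 and Nr1d1 had r = 0.83 (rho = 0.56, adjusted permutation p = 0.06369 and 0.06034) and r = 0.39 without FT replicate 1, so that value rested on this replicate.

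Over the 60 means of treatment and region, centred within regions, Per1 was most like Nr1d1 (r = 0.82) and Arntl most like Per2 (r = 0.90), while Dbp had its highest r to a member with Nr1d1 (0.62). These means share libraries, regions and controls, and the values are descriptions. Outside the members, the 5 genes most like Dbp were Dda1 (r = 0.89), Map7d1 (0.86), Prr7 (0.84), Ube2m (0.83) and Gpr162 (0.82). Those most like Arntl were Foxk2 (0.96), Cdk17 (0.95), Cdh11 (0.94), Rprd1a (0.94) and Adnp (0.94).

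Other genes of the clock were followed from lists of known clock genes, and listed genes that were not tested are not analysed here. Of all genes, 31.6% were called higher and 30.4% lower in FT, 30.2% and 27.4% in Bupropion, 34% and 36% in Desipramine, 25.3% and 23.5% in Maltodextrin, and 26.5% and 28.7% in Probiotics, and list counts near these shares are no result about the list. Of the activating arm, 3 of 5 listed genes were tested, Npas2 (the close relative of Clock), Arntl2 and Rorb. In Maltodextrin all 3 rose and in Desipramine 2 of 3, Rorb by 0.74 and Npas2 by 0.30. In FT Npas2 rose by 0.26 and the other two were not called, in Bupropion Npas2 fell by 0.13 and Arntl2 by 0.37, and in Probiotics Npas2 fell by 0.15 and Arntl2 by 0.58. Of the repressors 5 of 6 were tested, of which 3 rose and 1 fell in FT, 4 and none in Bupropion, 4 and 1 in Desipramine, 2 and 1 in Maltodextrin, and 2 and 2 in Probiotics. Cipc, a partner of CLOCK that inhibits it, rose in all 4 comparisons with Control (0.27 in FT, 0.27 in Bupropion, 0.40 in Desipramine and 0.16 in Maltodextrin) and fell by 0.10 in Probiotics. Ciart, another repressor, fell in FT (-0.30), Desipramine (-0.23) and Maltodextrin (-0.27) and rose by 0.15 in Bupropion and by 0.17 in Probiotics. Tef, a relative of Dbp and 1 of 2 listed outputs tested, rose by 0.18 in FT, 0.16 in Bupropion, 0.40 in Desipramine and 0.15 in Maltodextrin, and was at -0.03 in Probiotics (adjusted p = 0.3172). Of 5 tested genes (6 listed) for clock protein kinases and degradation, 2 rose and 1 fell in FT, 3 and none in Bupropion, 3 and 1 in Desipramine, 2 and 1 in Maltodextrin, and 2 and 2 in Probiotics. Gsk3b rose in all 5 comparisons, by 0.24 in Probiotics to 0.47 in Desipramine.

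Genes that respond to neuronal activity or to glucocorticoids share regulation with Per1 and were followed beside it, against the same shares of all genes. Of 11 immediate early genes, 2 rose and 6 fell in FT (median -0.20), 4 and 5 in Bupropion (-0.09), 2 and 6 in Desipramine (-0.23), 5 and 1 in Maltodextrin (0.10) and 1 and 6 in Probiotics (-0.14). Arc fell by 0.74 in FT, 0.84 in Bupropion, 0.60 in Desipramine and 0.81 in Probiotics. Egr4 rose by 0.55 to 0.78 in the 4 comparisons with Control, which share the Control libraries. Of 8 glucocorticoid receptor targets, 1 rose and 2 fell in FT, 3 and 1 in Bupropion, 2 and 2 in Desipramine, 3 and 1 in Maltodextrin, and 2 and 4 in Probiotics. In Probiotics, where Per1 rose, Tsc22d3 fell by 0.67 and Sgk1 by 0.48, and Zbtb16 rose by 0.63.

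Changes over all genes also followed the genomic span of the gene, and the members differ in span. In Desipramine the median change was -0.26 in the first of 4 equal groups of genes ordered by span, the shortest, and 0.16 in the last, and in FT -0.07 and 0.09. Clock, Arntl and Cry1 belong to the group with the longest spans and Dbp and Nr1d1 to that with the shortest. With the trend removed, Desipramine gave 0.32 for Clock, 0.19 for Arntl and 0.49 for Dbp, all still called, and the difference of Dbp between FT and Desipramine was lost (0.04, adjusted p = 0.2777). The calls of Clock in the same pair (-0.03, adjusted p = 0.254) and of Cry1 in Maltodextrin (0.08, adjusted p = 0.1388) were lost too, and Per1 was called higher in FT than in Bupropion (0.27, adjusted p = 0.02274). The part of the trend in the results was not tested.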

How the data were processed

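The authors deposited raw read counts per gene symbol for 300 libraries. Per the submitters' processing notes STAR, HTSeq and FastQC were used with build rn6; their versions and the strand setting are not stated there. Per the labels' protocols the libraries were made with a stranded total RNA kit. From these deposited counts, edgeR 4.0.16 (R 4.3.3) was used with TMM scaling, its default filter on low counts, the quasi-likelihood test and Benjamini-Hochberg adjustment over all genes tested, with calls at an adjusted p under 0.05. Over all regions, the counts of a treatment replicate were summed, with a gene-wise offset for depth. CPM refers to the total of a library, and logs use a pseudocount of 0.5 CPM. limma 3.58.1 and DESeq2 1.42.0 served as alternatives, beside other size factors, no filter, other groups or regions in the fit, a replicate block and leaving out each replicate. The fit was tested on simulated data with known changes. The members and lists were chosen with earlier results of these data known. All 10 members are named; of other lists, up to 3 genes with the smallest adjusted p per comparison, and values of those genes elsewhere; the 5 genes most like Dbp and Arntl; and the 2 largest called region changes per member.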

Additional observations from a re-analysis of the deposited data

Results flagged for a closer look

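In 7 of 60 groups of 5 treatment replicates, 1 replicate stood far from the other 4, a gap that chance gives in about 1 group in 20. The groups of different genes share libraries, so they are not independent. FT replicate 1 stood low in Nr1d1 (36.1 CPM) and high in Nr1d2 (123 CPM). Bupropion replicate 5 stood low in Clock (70.8 CPM) and Arntl (26.2 CPM). Desipramine replicate 3 stood high in Per1 (15.6 CPM) and Per3 (38.0 CPM), and Probiotics replicate 4 high in Per1 (10.96 CPM). In 3 of 39 groups of single regions the same held: Cry1 in LConly in Desipramine replicate 4 (15.0 CPM) and Control replicate 5 (11.2 CPM), and Dbp in venDG in Probiotics replicate 3 (48.7 CPM).

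The change differed between regions, by a test of the difference itself, in 10 members for FT (92.6% of all genes), 10 for Bupropion (90.2%), 10 for Desipramine (87.2%), 10 for Maltodextrin (89.8%) and 9 for Probiotics (82.3%). These counts lie near the shares of all genes and are no result about the members.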

How the results depend on the processing

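Of 1710 alternative values of the changes over all regions, 1577 kept their direction and their side of the threshold. In the same direction, 38 were no longer called and 29 became called. Another 2, called in the main fit, changed sign and were no longer called, both in Cry2 with only Raphe, PLC, NACShell, mPOA and CGC (-0.061 in Maltodextrin and 0.013 in Probiotics). A further 64, uncalled in the main fit, changed sign. Of these, Nr1d2 in Bupropion became called with Control and Maltodextrin pooled (-0.11), as did Per3 (-0.15) and Nr1d1 (-0.25) in Desipramine in the 5 regions alone. All 200 alternative values of the named region changes kept their call. These changes were picked as the largest called ones, so little else could be found and this is no further support for them. In the 5 regions alone, 5 members were called in FT (58.4% of all genes). Of 50 pairs of a member and a region there, 29, 24, 35, 23 and 30 were called in FT, Bupropion, Desipramine, Maltodextrin and Probiotics. The shares of all pairs stand with the tests in each region above. With Control and Maltodextrin pooled, 8 members were called in Bupropion, and the share of all genes called in that fit is not given here. Members varying between replicates numbered 2 in the 5 regions alone (47.1% of all genes) and 1 without FT replicate 1 (25.9% of all genes). Correlations called numbered 0 with TMM-normalised CPM (15 at an unadjusted permutation p under 0.05). The cause was not tested. Replicates of the same number in 2 groups had correlations of deviations from -0.10 to 0.25. These passed a limit of 0.1 in 2 of 5 pairs in FT, 4 in Bupropion, 2 in Desipramine, 3 in Maltodextrin and 2 in Probiotics, so a weak pairing by number remains possible. A replicate block changed 1 call over all regions, that of Arntl in FT against Bupropion (0.07, adjusted p = 0.04604, edgeR). Alternatives that use the gene span, unadjusted sums, ratios in fewer regions or leave out FT replicate 1 were chosen after seeing the data. Per1 in the shallowest library rested on 19 counts, which limits its precision there.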
